A study of Mus musculus with 32 samples.

Results

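The 10 genes described here are the NF-kB subunits Rela, Rel, Relb, Nfkb1 and Nfkb2 and the inhibitors and co-regulators Nfkbia, Nfkbie, Nfkbiz, Bcl3 and Tnfaip3. They were taken by symbol from the 54429 symbols of the merged table of gene counts. The rule used no values, but the list was chosen with earlier results of these data known. All 10 were among the 15254 genes with enough counts to test. Bulk RNA-seq was made from Veravec cells, a cultured line of mouse lung endothelial cells (ECs), transfected 2 times with a control siRNA (si-control) or with siRNA against Dnmt1 (si-dnmt), the maintenance DNA methyltransferase. Each siRNA was followed by no cytokine, TNF, IFN or TNF + IFN, with 4 libraries in each of the 8 groups and 32 in all. TNF was TNFα at 10 ng/mL and IFN was IFNγ at 1000 U/mL, each given for 16 h, and the labels state no separate doses for the combination. The 4 libraries of a group are described as biological replicates of this 1 line, so the p-values measure the spread between these cultures. The methods list a pair of Dnmt1 siRNAs and do not say which library received which. In bulk RNA, fewer cells that express a gene and less of its RNA per cell cannot be told apart.

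NF-kB is a family of dimeric transcription factors held in the cytoplasm by inhibitors of the IkB type. TNF receptor signalling activates the IkB kinases, the inhibitor is degraded, and RELA-containing dimers enter the nucleus, where they switch on adhesion molecules and chemokines in ECs as well as genes for their own inhibitors. A slower arm processes the NFKB2 precursor to p52, which pairs with RELB.

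Total counts ranged from 17362546 to 33500030 per library, and 19607 to 22579 genes had at least 1 count. Dnmt1 stood at 90.1, 89.1, 153 and 148 CPM (counts scaled to library size with TMM factors) in replicates 1 to 4 of si-control and at 10.3, 12.4, 6.45 and 6.53 CPM in si-dnmt, and no si-dnmt library of any cytokine state overlapped a si-control library of that state. Its log2 fold change without cytokine was -3.76 ± 0.37 (SE, n = 4 per group, edgeR adjusted p = 4.77e-08). Gbp2, an interferon-induced GTPase, ranged from 76.3 to 533 CPM in libraries without IFN and from 3452 to 9241 CPM in those with IFN. Birc3, a TNF-induced inhibitor of apoptosis, ranged from 12.9 to 41.5 CPM without TNF and from 69.2 to 129 CPM with it. All 11 endothelial markers examined were above 0 in every group, although Cldn5 ranged from 2 to 814 counts over the libraries. Of 8 leukocyte markers, the T-cell marker Cd3e was at 0 in every group, while Lyz2 ranged from 21 to 2500 counts over the libraries. The summed level of these 8 ranged from 44.6 to 134 CPM in si-control. Replicates 1 and 2 lay apart from replicates 3 and 4 in every group, as on the second principal component of all tested genes, where the si-control libraries stood at -31.6, -29.6, 13.9 and 12.6. The labels name no batch, so the effects below are also given within these 2 replicate sets.

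Promoter windows of 300 bases (250 before the transcription start and 50 after it) from RefSeq on GRCm38.p6 were at hand for 7 of the 10 genes, in 10 windows. Nfkb1, Relb and Nfkbiz had none. The NF-kB consensus, a motif of 10 bases searched on both strands, was matched in at least 1 window of 6 of the 7 genes, namely Nfkb2, Rel, Nfkbia, Nfkbie, Tnfaip3 and Bcl3. It was matched in 4.51% of all 32851 promoters of that length. Rela had no match in its window. The stretches below end before the transcribed part and carry the match nearest to the start, with every matched base in capitals. The genes shown made up 5 of the 9 that TNF raised in si-control. Bcl3, also among those 9, is not shown, and its match lies after the start. Positions count the start base as 0.
Nfkbia, chr12:55492648-55492717, minus strand: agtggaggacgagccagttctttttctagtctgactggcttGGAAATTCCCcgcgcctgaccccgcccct
Nfkbie, chr17:45555564-45555633, plus strand: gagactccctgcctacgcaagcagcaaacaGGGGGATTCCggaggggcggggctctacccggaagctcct
Tnfaip3, chr10:19015411-19015480, minus strand: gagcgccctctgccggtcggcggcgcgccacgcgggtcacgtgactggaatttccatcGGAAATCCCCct
Nfkb2, chr19:46304667-46304736, plus strand: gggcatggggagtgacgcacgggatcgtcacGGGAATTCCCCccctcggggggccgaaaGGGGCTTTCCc
Rel, chr11:23771021-23771090, minus strand: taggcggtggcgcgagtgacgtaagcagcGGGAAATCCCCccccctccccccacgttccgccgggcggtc

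The match nearest to the start began at -29 in Nfkbia, at -106 in Nfkbie, at -12 in the first window of Tnfaip3, at -11 in the first window of Nfkb2 and at -91 in Rel. The longer capitals of Nfkb2 and Rel are pairs of overlapping matches on opposite strands. Tnfaip3 held a further match at -125, and the match of Bcl3 began 2 bases after the start. The motif TTCNNNGAA, the gamma-activated site of IFNγ-induced genes, was found in 1 of the 10 windows, the first of Nfkb2 at -148, and in 8.30% of all promoters. The motif TTTCNNTTTC, the core of the interferon-stimulated response element, was found in 0 of the 10 windows and in 3.44% of all promoters. The first windows of the 7 genes held 15 to 42 CpG against a median of 7 over all promoters. A match of letters is a description and does not show that a factor binds there.

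**Figure D1:**
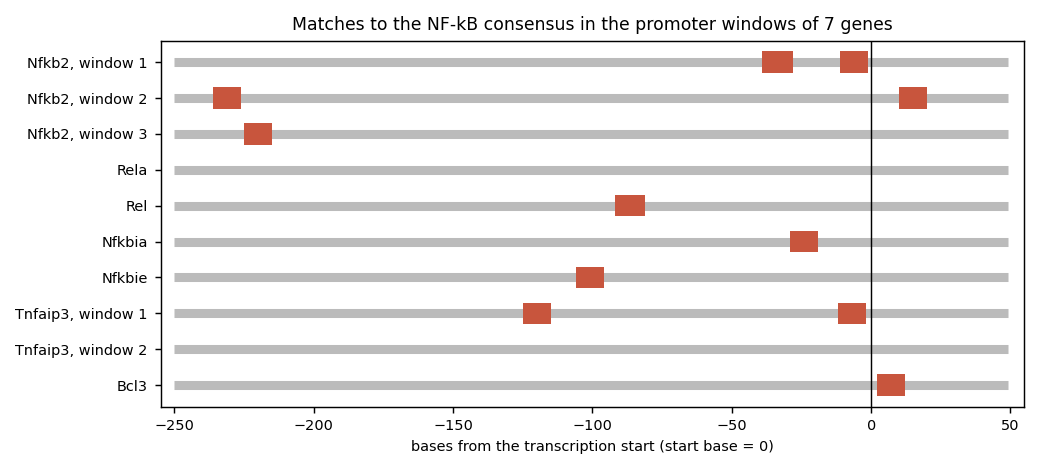
Matches to the NF-kB consensus (red) in the 300-base promoter windows (grey) of 7 genes, by distance in bases from the transcription start, with the start base at 0. Nfkb2 has 3 windows and Tnfaip3 has 2, and the window of Rela and the second window of Tnfaip3 hold no match.

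Per kilobase of exon, Nfkbia, which encodes IkBα, had the highest mean of the 10 genes in every group and Rel, which encodes c-Rel, had the lowest. The length used was the union of all exons, 12061 bases for Nfkb1 and 1610 for Nfkbia, and the places depend on it. Without that division, Nfkb1 ranged from 191 to 221 CPM in si-control and Nfkbia from 59.5 to 135 CPM. In si-control + IFN the lowest Nfkbia library, at 25.8 CPM per kb, lay below the highest of Rela, at 33.4. In si-control without cytokine the levels were 58.7 ± 24.5 CPM per kb for Nfkbia, 28.9 ± 5.17 CPM per kb for Rela and 16.8 ± 1.09 CPM per kb for Nfkb1 (means ± SD, n = 4). Nfkb2 followed at 12.6 ± 3.35 CPM per kb, and its libraries overlapped those of Nfkb1. Nfkbie, Nfkbiz, Relb, Bcl3 and Tnfaip3 came next in this order, with overlapping libraries between each pair of neighbours. Tnfaip3 was in place 9 at 2.84 ± 0.194 CPM per kb, and Rel was last at 1.49 ± 0.266 CPM per kb.

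The order changed most at Tnfaip3, which encodes A20, a ubiquitin-editing enzyme that shuts off signalling upstream of the IkB kinases. It stood in place 9 in si-control, in place 7 in si-control + TNF at 17.7 ± 2.12 CPM per kb and in place 5 in si-control + TNF + IFN at 32.8 ± 3.44 CPM per kb. In si-dnmt + TNF + IFN it was in place 2, at 54.0 ± 5.57 CPM per kb, where its libraries overlapped those of Rela at 53.8 ± 3.40 CPM per kb.

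**Figure D2:**
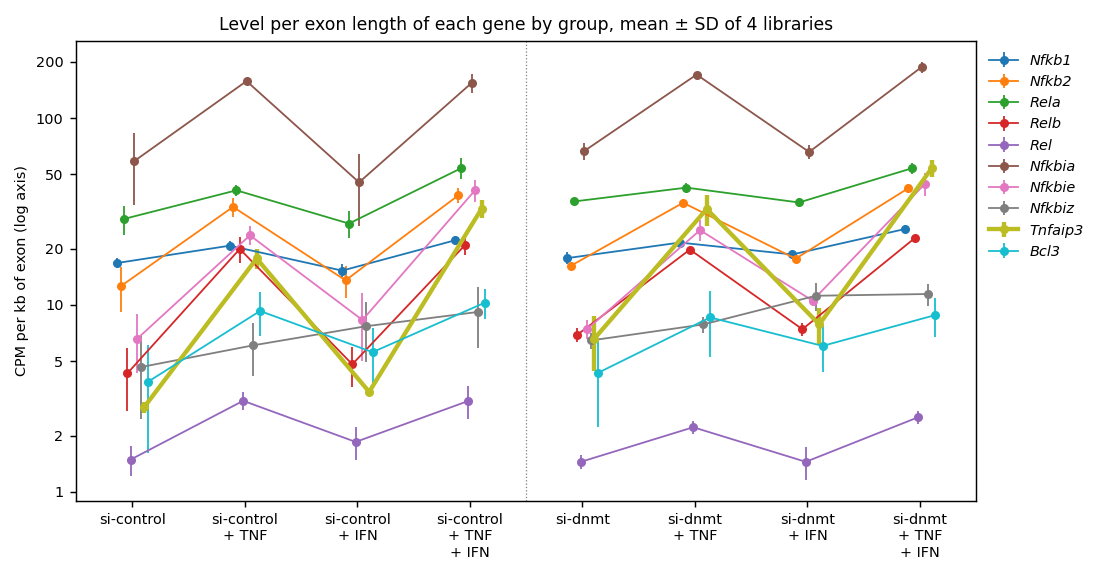
Level of each gene in CPM per kb of exon on a log axis, by group, as the mean of 4 libraries with SD bars. Tnfaip3 (thick line) moves from place 9 in si-control to place 2 in si-dnmt + TNF + IFN, while Nfkbia stays first and Rel stays last.

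TNF raised 9 of the 10 genes in si-control, against 16.1% of all tested genes that were higher and 14.6% that were lower by the same test. The median log2 fold change of the 10 genes was 1.34, against -0.01 over all tested genes. Tnfaip3 rose most, 6.25-fold, followed by Relb at 4.64-fold and Nfkbie at 3.57-fold, and Nfkbiz did not pass the test. For each of the 9 genes the TNF libraries lay above all si-control libraries without cytokine. All 9 were also called within each replicate set. Of all tested genes, 37.2% were called in either direction in replicates 1 and 2 and 44.4% in replicates 3 and 4.

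Among the subunits, Rela, the main activating partner, stood at 94.4, 108, 78.1 and 73.7 CPM without cytokine and at 123, 138, 118 and 126 CPM with TNF. Its log2 fold change was 0.51 ± 0.11 (adjusted p = 0.000622), one of the smaller rises. Rel was at 11.3, 13.7, 8.97 and 10.5 CPM and at 21.2, 22.2, 26.6 and 21.6 CPM with TNF, a log2 fold change of 1.05 ± 0.15 (adjusted p = 6.55e-06). Relb was at 20.7, 23.2, 12.3 and 10.6 CPM and at 66.1, 68.3, 83.1 and 92.3 CPM with TNF, a log2 fold change of 2.21 ± 0.18 (adjusted p = 3.21e-10). The resting Relb libraries fell into a higher pair, replicates 1 and 2, and a lower pair, replicates 3 and 4, while the order was turned around with TNF.

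Of the precursors, Nfkb1, the source of p50, was at 196, 221, 191 and 202 CPM and at 233, 268, 246 and 254 CPM with TNF, and its log2 fold change of 0.31 ± 0.07 (adjusted p = 0.00132) was the smallest of the 9 that passed. Nfkb2 was at 72.6, 69.2, 45.1 and 43.7 CPM and at 133, 146, 161 and 174 CPM with TNF, a log2 fold change of 1.41 ± 0.14 (adjusted p = 5.96e-09). Nfkb2 shares 830 exon bases with genes on the opposite strand in GENCODE M21, and without the strand setting of the counting, which no source used here gives, reads of these genes cannot be told apart.

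Of the cytoplasmic inhibitors, Nfkbia was at 121, 135, 59.5 and 62.2 CPM and at 251, 268, 244 and 253 CPM with TNF, a log2 fold change of 1.43 ± 0.22 (adjusted p = 1.49e-05). Nfkbie, which encodes IkBε, was at 24.6, 27.6, 14.99 and 13.3 CPM and at 73.5, 82.8, 66.8 and 64.1 CPM, a log2 fold change of 1.84 ± 0.21 (adjusted p = 1.27e-07). Tnfaip3 was at 19.6, 22.6, 20.1 and 19.8 CPM and at 111, 119, 141 and 141 CPM, a log2 fold change of 2.64 ± 0.18 (adjusted p = 1.03e-11). Its 4 resting libraries lay within a narrow range, unlike those of Nfkbia, where replicates 3 and 4 were well below replicates 1 and 2.

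The nuclear co-regulators Bcl3 and Nfkbiz bind p50 or p52 dimers and modify their output. Bcl3 was at 13.3, 15.3, 5.93 and 3.81 CPM and at 23.5, 31.5, 18.1 and 18.8 CPM with TNF, a log2 fold change of 1.27 ± 0.37 (adjusted p = 0.00908). It shares 161 exon bases with a gene on the opposite strand. Nfkbiz was at 30.1, 35.3, 14.0 and 13.9 CPM and at 39.8, 38.0, 21.6 and 22.7 CPM with TNF, with a log2 fold change of 0.39 ± 0.28 (adjusted p = 0.314). The groups overlapped, and in both of them replicates 1 and 2 were higher than replicates 3 and 4. Within replicates 3 and 4 Nfkbiz was called higher at 0.66 ± 0.11 (adjusted p = 5.98e-05), and within replicates 1 and 2 its log2 fold change was 0.27 ± 0.12 (adjusted p = 0.0866).

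**Figure D3:**
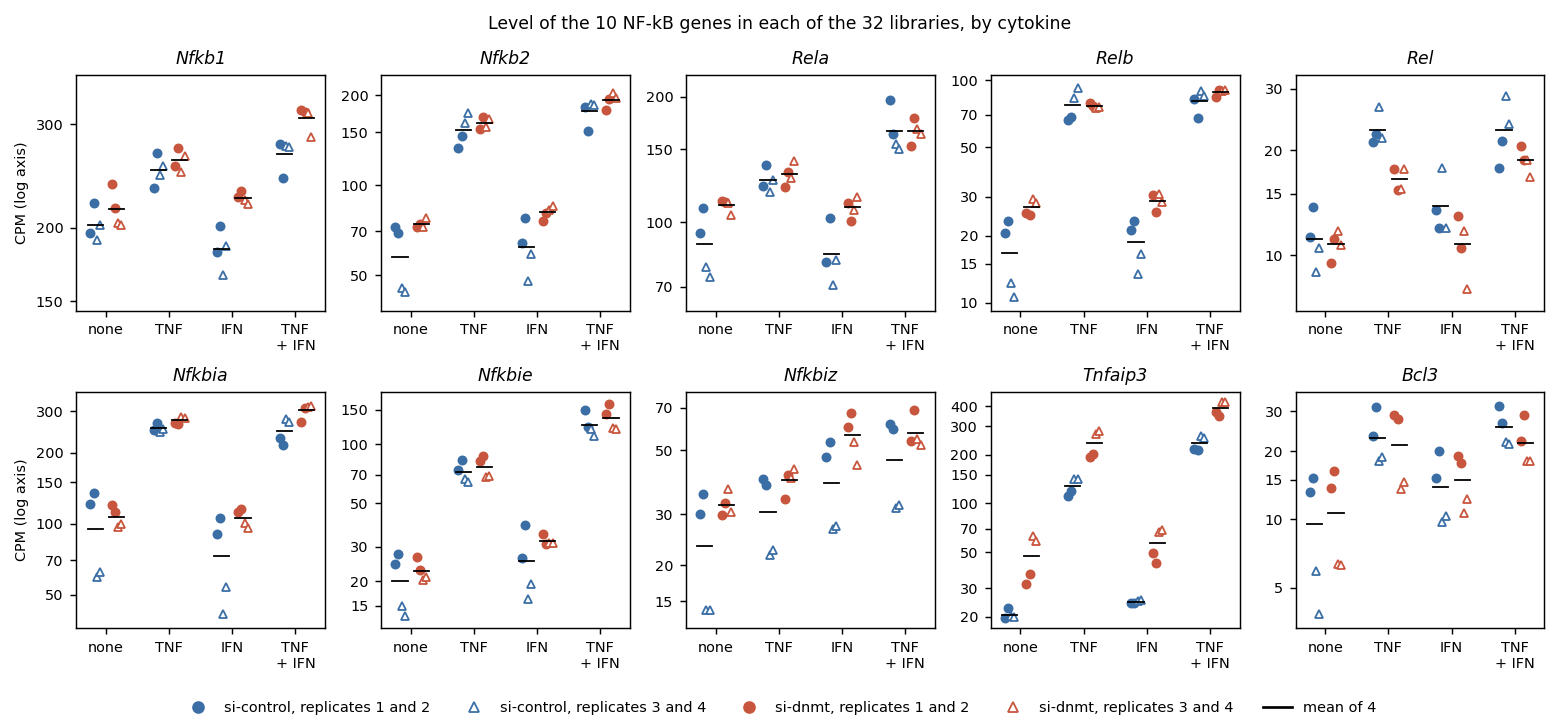
CPM on a log axis of the 10 genes in each of the 32 libraries, by cytokine, for si-control (blue) and si-dnmt (red). Filled circles are replicates 1 and 2, open triangles are replicates 3 and 4, and the line is the mean of 4. Tnfaip3 is higher in every si-dnmt library than in every si-control library of the same cytokine state.

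In si-dnmt, TNF raised 7 of the 10 genes, against 11.5% of all tested genes that were higher. Tnfaip3 rose 4.94-fold, from 31.9, 36.8, 63.0 and 58.9 CPM to 193, 203, 268 and 279.6 CPM, with a log2 fold change of 2.31 ± 0.18 (adjusted p = 2.26e-10). Nfkbie went from 26.5, 22.8, 20.4 and 21.0 CPM to 82.0, 87.4, 68.1 and 68.6 CPM, and its log2 fold change was 1.75 ± 0.21 (adjusted p = 4.47e-07). Relb went from 25.4, 24.9, 29.3 and 28.1 CPM to 79.5, 77.1, 75.05 and 75.9 CPM, a log2 fold change of 1.51 ± 0.18 (adjusted p = 3.19e-07). In all 3 genes the groups did not overlap. The other 4 that rose were Nfkbia (1.36 ± 0.22), Nfkb2 (1.12 ± 0.13), Rel (0.61 ± 0.15) and Nfkb1 (0.28 ± 0.07). Bcl3 had a log2 fold change of 1.00 ± 0.36 (adjusted p = 0.0502) and Rela of 0.25 ± 0.11 (adjusted p = 0.108). Both were called with the replicate number as a block (adjusted p = 3.06e-05 and 0.0459), and Bcl3 also without si-dnmt replicate 2 or si-dnmt + TNF replicate 3 or 4 (1.14 to 1.28). The summed level of the 11 endothelial markers was also lower with TNF. It ranged from 6676 to 10061 CPM in si-control and from 4356 to 6156 CPM in si-control + TNF, and from 6344 to 9242 CPM in si-dnmt and 3997 to 5584 CPM in si-dnmt + TNF, and its part in the changes of the 10 genes was not tested.

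By edgeR without a replicate block, IFN alone raised or lowered 0 of the 10 genes in either siRNA. Of all tested genes, 14.5% were called in either direction in si-control and 9.01% in si-dnmt. At an unadjusted p under 0.05 there was 1 gene in si-control (Nfkbiz) and 2 in si-dnmt (Nfkbie and Nfkbiz), and DESeq2 also called 0 in both. Nfkbiz, whose product IkBζ acts in the nucleus, had the lowest unadjusted p in both siRNAs. It was at 47.2, 53.3, 26.6 and 27.3 CPM in si-control + IFN against 30.1, 35.3, 14.0 and 13.9 CPM without cytokine, and at 60.0, 67.2, 53.2 and 44.5 CPM in si-dnmt + IFN against 29.7, 32.8, 36.7 and 30.5 CPM. Every IFN library lay above the resting library of the same number, in both siRNAs. The log2 fold change was 0.73 ± 0.28 in si-control (adjusted p = 0.0852) and 0.79 ± 0.28 in si-dnmt (adjusted p = 0.075). Without si-control replicate 2, the highest resting library, it was called in si-control (1.00, adjusted p = 0.023).

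With the replicate number as a block, Nfkbiz was called in both siRNAs (0.75 ± 0.20, adjusted p = 0.00488, and 0.75 ± 0.19, adjusted p = 0.00513). Within replicates 1 and 2 its log2 fold change was 0.65 in si-control and 1.03 in si-dnmt, within replicates 3 and 4 it was 0.95 and 0.54, and all 4 were called. The block also called Bcl3, at 0.60 ± 0.18 in si-control and 0.56 ± 0.17 in si-dnmt, and Nfkbie, at 0.51 ± 0.14 in si-dnmt. It thus called 2 of the 10 genes in si-control and 3 in si-dnmt, where it called 25.4% and 19.0% of all tested genes. Nfkbia moved the other way in si-control. It was at 90.5, 106, 41.6 and 53.7 CPM with IFN, each library below the resting library of the same number, and its log2 fold change of -0.37 ± 0.22 did not pass (adjusted p = 0.305), while within each replicate set it was called lower, at -0.36 in replicates 1 and 2 and at -0.35 in replicates 3 and 4.

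Replicates 3 and 4 alone gave 8 calls with IFN in si-control, 7 higher and 1 lower, where 21.9% of all tested genes were called, and replicates 1 and 2 alone gave 2, where 25.4% were called. Beside Nfkbia and Nfkbiz, the calls in replicates 3 and 4 were Bcl3 (1.04), Rel (0.61), Relb (0.39), Nfkbie (0.34), Tnfaip3 (0.34) and Nfkb2 (0.27). The Tnfaip3 libraries of si-control + IFN, at 24.2 to 25.4 CPM, lay above all of si-control, at 19.6 to 22.6 CPM, over all 4 replicates (log2 0.27 ± 0.17, adjusted p = 0.362). In si-dnmt, either set alone gave 3 calls, where 19.4% of all tested genes were called in replicates 1 and 2 and 16.1% in replicates 3 and 4. These were Nfkbie and Nfkbiz in both sets, Tnfaip3 in replicates 1 and 2 (0.42) and Bcl3 in replicates 3 and 4 (0.87). The Nfkbie libraries of si-dnmt + IFN, at 30.9 to 35.0 CPM, lay above all of si-dnmt, at 20.4 to 26.5 CPM (log2 0.50 ± 0.20, adjusted p = 0.145).

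TNF + IFN raised all 10 genes in both siRNAs, against 23.5% of all tested genes that were higher in si-control and 21.3% in si-dnmt. The median log2 fold change of the 10 genes was 1.41 in si-control and 1.21 in si-dnmt. Of the 11 endothelial markers, TNF + IFN lowered 8 in si-control and 9 in si-dnmt (median log2 fold changes of -0.82 and -1.03), against 4 and 6 with TNF alone. In the same order, 21.6% and 18.9% of all tested genes were lower with TNF + IFN, and 14.6% and 9.54% with TNF alone. The part of these markers in the rises of the 10 genes was not tested. Tnfaip3 reached 218, 214, 262 and 255 CPM in si-control, 11.6-fold above no cytokine, and 367, 345, 425 and 423 CPM in si-dnmt, 8.18-fold above. Nfkbie reached 149, 122, 119 and 111 CPM in si-control and 142, 160.3, 120.5 and 119.6 CPM in si-dnmt, with log2 fold changes of 2.64 ± 0.22 (adjusted p = 5.02e-11) and 2.58 ± 0.21 (adjusted p = 9.1e-11). The remaining log2 fold changes in si-control were 2.28 ± 0.18 for Relb, 1.62 ± 0.14 for Nfkb2, 1.42 ± 0.37 for Bcl3, 1.39 ± 0.22 for Nfkbia, 1.04 ± 0.15 for Rel, 0.98 ± 0.28 for Nfkbiz, 0.91 ± 0.11 for Rela and 0.40 ± 0.07 for Nfkb1. In si-dnmt they were 1.72 ± 0.18 for Relb, 1.50 ± 0.22 for Nfkbia, 1.38 ± 0.14 for Nfkb2, 1.04 ± 0.36 for Bcl3, 0.83 ± 0.28 for Nfkbiz, 0.79 ± 0.15 for Rel, 0.59 ± 0.11 for Rela and 0.52 ± 0.07 for Nfkb1. Nfkbia stood at 231, 215, 278 and 269 CPM in si-control + TNF + IFN and at 271, 311, 312 and 315 CPM in si-dnmt + TNF + IFN, and Relb at 82.7, 67.6, 89.4 and 84.7 CPM and 84.5, 90.6, 89.1 and 90.5 CPM. The calls of Nfkbiz and Bcl3 in si-dnmt were lost without si-dnmt + TNF + IFN replicate 2, at 0.72 for Nfkbiz (adjusted p = 0.0599), and that of Bcl3 also without si-dnmt replicate 3 or 4, at 0.85 to 0.87 over the 3 libraries (adjusted p = 0.0835 to 0.0883).

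Against TNF alone, TNF + IFN gave higher levels of Tnfaip3, Nfkbie and Rela in both siRNAs and of Nfkb1 in si-dnmt. These were 3 of 10 in si-control, against 12.6% of all tested genes that were higher, and 4 of 10 in si-dnmt, against 10.9%. In si-control the log2 difference was 0.89 ± 0.17 for Tnfaip3 (adjusted p = 0.000262), 0.80 ± 0.20 for Nfkbie (adjusted p = 0.00452) and 0.40 ± 0.11 for Rela (adjusted p = 0.00827). In si-dnmt it was 0.73 ± 0.17, 0.82 ± 0.20 and 0.34 ± 0.11 for these genes, in this order, and 0.24 ± 0.07 for Nfkb1. For Tnfaip3 and Nfkbie no library with TNF + IFN overlapped one with TNF alone in either siRNA. Rela stood at 197, 163, 154 and 150.1 CPM in si-control + TNF + IFN, and without the highest of these, replicate 1, its call was lost (0.30, adjusted p = 0.0639). In si-dnmt the call of Rela was lost without si-dnmt + TNF replicate 1 or 3 or si-dnmt + TNF + IFN replicate 2 or 3 (0.30 to 0.33), and that of Nfkb1 without si-dnmt + TNF replicate 3 or si-dnmt + TNF + IFN replicate 1 (0.22).

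Relb, Rel, Nfkbia and Bcl3 differed by 0.21 or less on the log2 scale between TNF + IFN and TNF alone in both siRNAs, and none of these passed. Nfkbiz differed by 0.60 ± 0.28 in si-control and 0.54 ± 0.28 in si-dnmt, and was called with the block in both (adjusted p = 0.0196 and 0.0446). Whether IFN added more in the presence of TNF than alone was tested by the TNF-by-IFN interaction. It called 0 of the 10 genes by edgeR in si-control, where 1.06% of all tested genes were called and 3 of the 10 had an unadjusted p under 0.05 (Rela, Tnfaip3 and Nfkb1). In si-dnmt it called 0 of the 10, where 0.354% of all tested genes were called and 1 of the 10 (Rela) had an unadjusted p under 0.05. DESeq2 called 0 in both. With the block, Rela (0.48 ± 0.14, adjusted p = 0.0417) and Tnfaip3 (0.62 ± 0.16, adjusted p = 0.0264) were called in si-control, where 4.24% of all tested genes were called. Rela was also called without si-control + IFN replicate 2 (0.61, adjusted p = 0.0348).

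**Figure D4:**
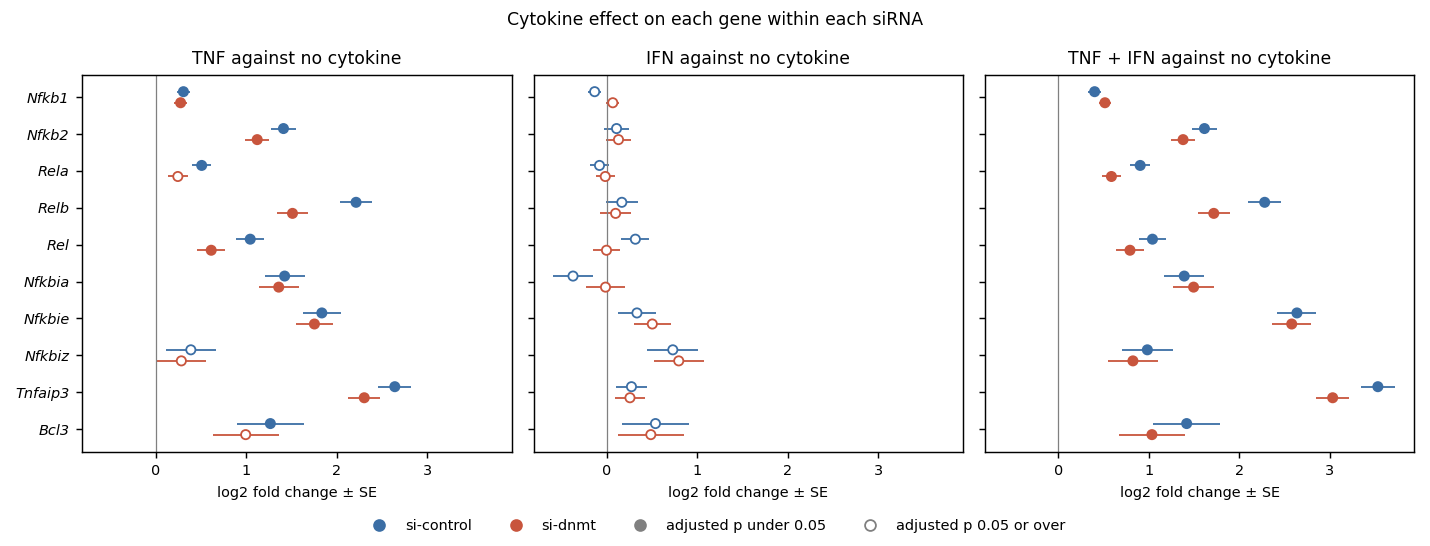
Log2 fold change (± SE) of each gene with TNF, IFN or TNF + IFN against no cytokine, within si-control (blue) and si-dnmt (red). Filled points passed an adjusted p under 0.05. TNF + IFN raised all 10 genes in both siRNAs, and IFN alone moved none of them past the test in this fit without a replicate block.

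Dnmt1 siRNA raised Tnfaip3 in all 4 cytokine states and, over the average of the states, 7 of the 10 genes, while Rel was lower. The background for the average was 24.4% of all tested genes higher and 24.1% lower. By state, 3 of the 10 genes were higher without cytokine (9.58% of all tested genes were), 1 with TNF (10.4%), 5 with IFN (10.8%) and 2 with TNF + IFN (8.97%), and 1 was lower with TNF (9.59% of all tested genes were). The median log2 fold change of the 10 genes was 0.25 without cytokine, 0.06 with TNF, 0.38 with IFN and 0.13 with TNF + IFN, and that of all tested genes lay between -0.01 and 0.00 in each state. In the average, Tnfaip3 was higher by 1.00 ± 0.09, Nfkbiz by 0.43 ± 0.14, Relb by 0.36 ± 0.09, Nfkbia by 0.28 ± 0.11, Nfkb2 by 0.24 ± 0.07, Rela by 0.18 ± 0.05 and Nfkb1 by 0.16 ± 0.04 on the log2 scale. Rela (0.05) and Nfkbiz (0.06) were not called within replicates 1 and 2.

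Tnfaip3 was higher in every si-dnmt library than in every si-control library of the same state. Without cytokine it stood at 19.6, 22.6, 20.1 and 19.8 CPM in si-control and at 31.9, 36.8, 63.0 and 58.9 CPM in si-dnmt, 2.33-fold higher (log2 1.22 ± 0.17, adjusted p = 1.19e-05). With IFN it stood at 24.2, 24.3, 25.1 and 25.4 CPM and at 49.2, 43.0, 66.6 and 68.8 CPM, 2.30-fold higher (log2 1.20 ± 0.17, adjusted p = 1.45e-05). With TNF the difference was 1.84-fold (log2 0.88 ± 0.17, adjusted p = 0.000437), and with TNF + IFN it was 1.64-fold (log2 0.72 ± 0.17, adjusted p = 0.00328). It was called within each replicate set in every state. In replicates 1 and 2 the log2 difference was 0.72 without cytokine, 0.78 with TNF, 0.91 with IFN and 0.72 with TNF + IFN, and in replicates 3 and 4 it was 1.61, 0.96, 1.42 and 0.71.

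Relb was raised without cytokine and with IFN. It stood at 20.7, 23.2, 12.3 and 10.6 CPM in si-control and at 25.4, 24.9, 29.3 and 28.1 CPM in si-dnmt (log2 0.69 ± 0.18, adjusted p = 0.00601), and at 21.3, 23.4, 13.5 and 16.6 CPM in si-control + IFN and at 30.4, 25.6, 30.9 and 28.3 CPM in si-dnmt + IFN (log2 0.62 ± 0.18, adjusted p = 0.012). The si-dnmt libraries were close together and above all si-control libraries, of which replicates 3 and 4 were the lowest. With IFN the call was lost without si-control + IFN replicate 3 (0.49, adjusted p = 0.0665). In replicates 1 and 2 alone the difference was 0.21 without cytokine (adjusted p = 0.205) and 0.31 with IFN (adjusted p = 0.0499), and in replicates 3 and 4 it was 1.32 and 0.97. With TNF (log2 -0.01 ± 0.17) and with TNF + IFN (log2 0.13 ± 0.17) it did not pass.

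Rela was higher without cytokine (0.31 ± 0.11, adjusted p = 0.0433) and with IFN (0.37 ± 0.11, adjusted p = 0.0134). Its libraries without cytokine were at 94.4, 108, 78.1 and 73.7 CPM in si-control and at 113, 112, 111 and 104 CPM in si-dnmt, where si-control replicate 2 lay inside the si-dnmt range. The call held without si-control replicate 2 and was lost when any other single one of the 8 libraries was left out (0.23 to 0.34, adjusted p = 0.0514 to 0.17). With IFN the call was lost without si-control + IFN replicate 3 (0.30). Nfkb1 was higher with IFN (0.29 ± 0.07, adjusted p = 0.00422), at 182, 202, 166 and 187 CPM in si-control + IFN and 226, 231, 223 and 219.6 CPM in si-dnmt + IFN, and with TNF + IFN (0.20 ± 0.07, adjusted p = 0.0465). The latter call was lost when any single library other than si-dnmt + TNF + IFN replicate 4 was left out (0.16 to 0.22).

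Nfkb2 was higher with IFN (0.39 ± 0.13, adjusted p = 0.0405), a call lost without any 1 of si-control + IFN replicates 1, 3 and 4 and si-dnmt + IFN replicates 2, 3 and 4 (0.28 to 0.40). Without cytokine it was at 72.6, 69.2, 45.1 and 43.7 CPM in si-control and at 72.5, 73.9, 72.4 and 77.8 CPM in si-dnmt (0.36 ± 0.13, adjusted p = 0.0572). Replicates 1 and 2 of si-control lay near the si-dnmt libraries and replicates 3 and 4 below them, and without si-control replicate 1 or 2 the difference was called (0.46 to 0.49). Over all 4 replicates, Rel was the only one of the 10 genes called lower in a state. With TNF it was at 21.2, 22.2, 26.6 and 21.6 CPM in si-control and at 17.6, 15.4, 15.5 and 17.7 CPM in si-dnmt, a log2 fold change of -0.47 ± 0.15 (adjusted p = 0.0272), with no overlap between the groups. That call depended on 3 libraries and did not pass without replicate 3 of si-control + TNF or replicate 2 or 3 of si-dnmt + TNF (-0.44 to -0.39). Within replicates 3 and 4 Bcl3 was also called lower with TNF (-0.39 ± 0.14, adjusted p = 0.0298). Averaged over the states the log2 fold change of Rel was -0.29 ± 0.08 (adjusted p = 0.00251).

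Nfkbia, Nfkbie, Nfkbiz and Bcl3 did not pass in any single state. Nfkbia was at 121, 135, 59.5 and 62.2 CPM in si-control and at 119.8, 112, 97.0 and 99.6 CPM in si-dnmt (0.18 ± 0.22, adjusted p = 0.628), and Nfkbiz was at 30.1, 35.3, 14.0 and 13.9 CPM and at 29.7, 32.8, 36.7 and 30.5 CPM (0.48 ± 0.28, adjusted p = 0.258). In both genes replicates 1 and 2 of si-control lay within or above the si-dnmt range, and replicates 3 and 4 of si-control lay below it. With IFN, Nfkbia (0.54 ± 0.22) and Nfkbie (0.34 ± 0.21) were called without si-control + IFN replicate 2, the highest of its group in Nfkbia (0.77 and 0.63). Averaged over the states, the adjusted p was 0.0348 for Nfkbia and 0.0124 for Nfkbiz. The averaged call of Nfkbia was lost without any 1 of 8 libraries, which were si-control replicates 3 and 4, si-control + IFN replicates 3 and 4, si-control + TNF + IFN replicates 1 and 2, si-dnmt replicate 1 and si-dnmt + IFN replicate 2 (0.23 to 0.27). Nfkbie differed by 0.18 ± 0.10 in the average (adjusted p = 0.143) and was called without si-control + IFN replicate 2 (0.25), and Bcl3 differed by -0.02 ± 0.18.

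With the replicate number as a block, 5 of the 10 genes were higher without cytokine, where 32.4% of all tested genes were called, as Nfkb2 (0.37 ± 0.13, adjusted p = 0.0309) and Nfkbiz (0.58 ± 0.20, adjusted p = 0.0242) were added. With IFN the block called 8, where 34.5% of all tested genes were called, adding Nfkbia (0.58 ± 0.19), Nfkbie (0.39 ± 0.14) and Nfkbiz (0.58 ± 0.19). In the average it added Nfkbie (0.20 ± 0.07, adjusted p = 0.0122).

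Some markers of other cell types were also called with the siRNA. In the average, 24.4% of all tested genes were higher and 24.1% lower, and without cytokine 8.88% were lower. Of 6 pericyte and smooth muscle markers, 3 were tested and 2 of these were called higher in the average, one of them Acta2. Their summed level without cytokine ranged from 7.79 to 26.5 CPM in si-control and from 39.5 to 183 CPM in si-dnmt, where Rgs5 was at 0. Of 6 fibroblast markers, 4 were tested, of which 1 was called lower without cytokine and 1 higher in the average, with summed levels of 43.4 to 80.6 CPM in si-control and 17.6 to 34.5 CPM in si-dnmt and with Lum at 0 in both. Of 8 leukocyte markers, 2 were tested and 1 was called lower in the average, with summed levels of 44.6 to 134 CPM and 13.4 to 72.2 CPM and with Adgre1 and Cd3e at 0 in both. Of 6 epithelial markers, 1 was tested and 0 were called, with summed levels of 6.90 to 22.6 CPM and 6.94 to 16.1 CPM and with Sftpc at 0 in both. Of the 11 endothelial markers, 2 were called higher and 2 lower in the average, near the shares of all tested genes. The part of any of these in the siRNA effects on the 10 genes was not tested.

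**Figure D5:**
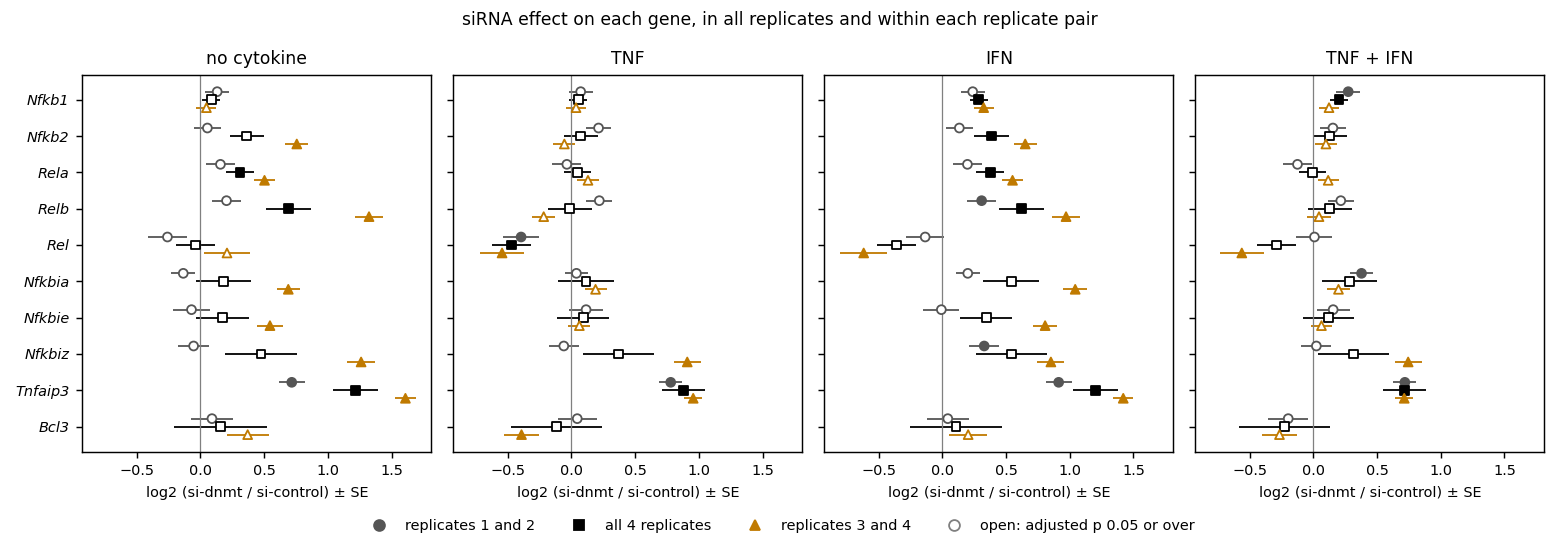
Log2 ratio (± SE) of si-dnmt to si-control for each gene in each cytokine state, in all 4 replicates (squares), in replicates 1 and 2 (circles) and in replicates 3 and 4 (triangles). Open symbols had an adjusted p of 0.05 or over. Without cytokine and with IFN the replicates 3 and 4 show larger differences for Nfkb2, Relb, Nfkbia, Nfkbie and Tnfaip3 than replicates 1 and 2, and with TNF + IFN the Tnfaip3 values of both sets lie near 0.72.

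The difference between the replicate sets was tested directly. These sets came from an earlier analysis of these same data, and no label names them. The counts below therefore describe this split and are not independent support for it. Without cytokine, the siRNA effect was larger in replicates 3 and 4 than in replicates 1 and 2 for 6 of the 10 genes, against 2.20% of all tested genes. These were Nfkbiz (difference of log2 fold changes 1.33 ± 0.17, adjusted p = 5.28e-06), Relb (1.13 ± 0.16, adjusted p = 1.61e-05), Tnfaip3 (0.90 ± 0.12, adjusted p = 1.04e-05), Nfkbia (0.84 ± 0.13, adjusted p = 7.34e-05), Nfkb2 (0.71 ± 0.14, adjusted p = 0.00097) and Nfkbie (0.63 ± 0.19, adjusted p = 0.0377). With IFN it was larger for 5, against 1.44% of all tested genes, namely Nfkbia (0.83 ± 0.13), Nfkbie (0.80 ± 0.19), Relb (0.65 ± 0.16), Nfkb2 (0.50 ± 0.14) and Tnfaip3 (0.49 ± 0.12). With TNF it was larger for 1, Nfkbiz (0.97 ± 0.17), against 1.95%, and with TNF + IFN for 1, also Nfkbiz (0.72 ± 0.16), against 3.00%. The knockdown of Dnmt1 was itself deeper in replicates 3 and 4, by -1.56 ± 0.15 on the log2 scale without cytokine (adjusted p = 7.06e-08), with the si-control level of Dnmt1 higher and the si-dnmt level lower there, and its part in these differences was not tested.

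For Nfkbia without cytokine, the larger gap between the sets was in si-control, which was at 121 and 135 CPM in replicates 1 and 2 and at 59.5 and 62.2 CPM in replicates 3 and 4, against 119.8 and 112 CPM and 97.0 and 99.6 CPM in si-dnmt. With TNF the si-control libraries of Nfkbia ranged from 244 to 268 CPM. For Tnfaip3 the larger gap was in si-dnmt, at 31.9 and 36.8 CPM in replicates 1 and 2 and 63.0 and 58.9 CPM in replicates 3 and 4, while si-control ranged from 19.6 to 22.6 CPM.

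In a test added after the values were seen, the rise with TNF in si-control was larger in replicates 3 and 4 for 6 of the 10 genes, against 7.47% of all tested genes. These were Relb (1.32 ± 0.15), Nfkbia (1.01 ± 0.13), Bcl3 (0.97 ± 0.24), Nfkb2 (0.94 ± 0.14), Nfkbie (0.63 ± 0.18) and Tnfaip3 (0.37 ± 0.12). In si-dnmt it differed for 0 of the 10 by edgeR, against 3.13% of all tested genes in either direction. At an unadjusted p under 0.05 there were 2, Tnfaip3 (-0.36 ± 0.11) and Nfkbia (0.33 ± 0.13), and DESeq2 called 0.

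Whether the siRNA changed the response to a cytokine was tested by the siRNA-by-cytokine interactions. Over all 4 replicates they called 0 of the 10 genes by edgeR with TNF, IFN or TNF + IFN, against 0.0328%, 0.0459% and 0.531% of all tested genes. At an unadjusted p under 0.05 there were 1 with TNF (Relb, -0.70 ± 0.25), 0 with IFN and 3 with TNF + IFN (Relb, -0.56 ± 0.25, Tnfaip3, -0.50 ± 0.24, and Rela, -0.32 ± 0.15), and DESeq2 called 0 in each. The estimates with TNF were below 0 for all 10 genes, from -0.70 for Relb to -0.03 for Nfkb1. The resting libraries of si-control and si-dnmt enter these estimates and also the siRNA effects without cytokine.

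Within replicates 3 and 4 the rise with TNF was smaller in si-dnmt for 6 of the 10 genes, led by Relb (-1.54 ± 0.14, adjusted p = 3.92e-07), Nfkb2 (-0.81 ± 0.12), Bcl3 (-0.76 ± 0.21) and Tnfaip3 (-0.65 ± 0.11), where 8.04% of all tested genes were called. Within replicates 1 and 2 it called 0 of the 10, where 1.97% of all tested genes were called. The estimate for Relb there was 0.01 ± 0.15 and that for Tnfaip3 was 0.06 ± 0.14. The difference between the sets was itself called for Relb (-1.57 ± 0.21, adjusted p = 6.44e-05), Nfkb2 (-0.98 ± 0.19) and Tnfaip3 (-0.73 ± 0.16), against 0.551% of all tested genes that were lower. With TNF + IFN it was called for Relb (-1.30 ± 0.21), Nfkbia (-1.02 ± 0.18), Tnfaip3 (-0.91 ± 0.16) and Nfkb2 (-0.77 ± 0.19), against 0.872%. For Nfkbia the interaction with TNF + IFN was 0.51 ± 0.13 in replicates 1 and 2 (adjusted p = 0.023) and -0.49 ± 0.12 in replicates 3 and 4 (adjusted p = 0.012), so the direction turned between the sets.

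Of 18 receptors, adaptors and kinases upstream of NF-kB, all tested, TNF raised 7 and lowered 1 in si-control (16.1% of all tested genes were higher and 14.6% lower), with a median log2 fold change of 0.18. The largest rises were those of Ikbke, an IkB kinase-related kinase (1.36 ± 0.08, adjusted p = 5.25e-13), and of the receptor adaptors Traf2 (0.77 ± 0.09) and Traf3 (0.72 ± 0.12), and the gene that fell was Tnfrsf1a, the main TNF receptor (-0.86 ± 0.11). Averaged over the states, si-dnmt raised 9 of the 18 and lowered 3 (24.4% of all tested genes were higher and 24.1% lower). Ikbke was highest here too (1.11 ± 0.04), at 27.1, 27.8, 31.3 and 29.5 CPM in si-control and 58.4, 61.4, 61.0 and 65.4 CPM in si-dnmt without cytokine, followed by Traf3 (0.59 ± 0.06) and Traf6 (0.55 ± 0.05). Tab1 (-0.50 ± 0.10), Tradd (-0.32 ± 0.08) and Tnfrsf1b (-0.31 ± 0.06) were lower, and Tradd was not called within replicates 3 and 4 (-0.19, adjusted p = 0.0535).

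Of 16 other inhibitors of the pathway, all tested, TNF raised 4 and lowered 2 in si-control, with a median of 0.09, and these shares lie near those of all tested genes (16.1% higher and 14.6% lower). Tnip1, an A20-binding partner, rose by 1.69 ± 0.29 (adjusted p = 4.49e-05) and Nfkbib, which encodes IkBβ, by 0.94 ± 0.12. Tnip3, a relative of Tnip1, rose by 5.30 ± 0.67 from 0, 4, 0 and 0 counts in the 4 si-control libraries to 67, 60, 39 and 22 counts with TNF, so its size is uncertain. Nkiras2 (-0.54 ± 0.18) and Rnf11 (-0.24 ± 0.08) were lower, and each call was lost without any 1 of 4 libraries (-0.53 to -0.47 and -0.24 to -0.20). Those libraries were si-control replicates 1 and 2 and si-control + TNF replicates 1 and 3 for Nkiras2, and si-control replicate 4 and si-control + TNF replicates 2, 3 and 4 for Rnf11. Averaged over the states, si-dnmt raised 5 of the 16 and lowered 5, again near the shares of all tested genes (24.4% higher and 24.1% lower). Zc3h12a, an RNase that degrades inflammatory transcripts, was higher (0.96 ± 0.14), as were Nfkbid (0.75 ± 0.14) and Nfkbib (0.45 ± 0.06). Cyld, a deubiquitinase that opposes the pathway as A20 does, was lower (-0.90 ± 0.08, adjusted p = 2.59e-10), at 103, 109.7, 112 and 121 CPM in si-control and 60.8, 63.0, 58.8 and 56.7 CPM in si-dnmt without cytokine, with no overlap. Nkiras2 (-0.33 ± 0.09) and Nfkbil1 (-0.32 ± 0.08) were lower too, and Nfkbil1 was not called within replicates 3 and 4 (-0.25, adjusted p = 0.0833).

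Of 26 NF-kB target genes of endothelium, all tested, TNF raised 21 and lowered 1 in si-control (16.1% of all tested genes were higher and 14.6% lower), with a median of 1.79. Averaged over the states, si-dnmt raised 17 and lowered 3 (24.4% of all tested genes were higher and 24.1% lower), with a median of 0.73 against 0.00 over all tested genes. The largest rises with TNF were those of the chemokines Ccl20 (7.14 ± 0.61) and Ccl5 (5.62 ± 0.43) and of Ltb (5.25 ± 1.02), and Selp was lower (-1.04 ± 0.22). Ccl20 and Ltb had 2, 5, 1 and 0 and 0, 0, 3 and 2 counts in the si-control libraries, so the sizes of their rises are uncertain. With si-dnmt the largest rises were those of Tnf itself, Ccl20 (2.51 ± 0.30) and Cxcl2, a neutrophil chemokine (2.43 ± 0.25). Over the libraries Ccl20 ranged from 0 to 1236 counts and Cxcl2 from 1 to 1862, so the sizes of their rises are uncertain here too. Tnf had 2, 3, 0 and 0 counts in si-control + TNF, 23, 39, 13 and 11 counts in si-dnmt + TNF and 0 counts in all si-control + IFN libraries, so no fold is given for it. Cflar (-0.50 ± 0.10), Sod2 (-0.48 ± 0.18) and Traf1 (-0.34 ± 0.08) were lower with si-dnmt, and Sod2 lost its call without si-control replicate 2 (-0.40, adjusted p = 0.0535).

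The genes whose means over the 8 groups were most like those of 9 of the 10 were sought among 9048 genes with a mean of at least 10 CPM, by the root mean square of the difference in log2 CPM after centring each gene. Nfkbia was followed most closely by Cyba (0.13) and then by Nfkb2 (0.19), the only one of the 10 found among the 2 nearest genes of another. Nfkbie was nearest to Birc3 (0.18) and Gadd45b (0.19). Nfkb2 was nearest to Mb21d1 (0.11) and 4930523C07Rik (0.13), and Relb to Ppp1r12b (0.14) and Tank (0.20). Nfkbiz was nearest to Bak1 (0.07) and Slc12a7 (0.11), Rela to Fam49b (0.08) and Arap1 (0.09), and Rel to Eri1 (0.08) and Chaf1a (0.09). Nfkb1 was nearest to Prdx1 (0.04) and Otud5 (0.06), and Bcl3 to Rad51ap1 (0.10) and Tnfaip8 (0.14). Tnfaip3 had the widest range over the groups, 4.24 on the log2 scale.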

How the data were processed

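RNA from 32 libraries of 1 mouse endothelial line was sequenced. The authors deposited raw counts per gene for each library and a merged table, which were identical in every cell. The submitters' notes name cutadapt 4.9, FastQC 0.12.1, MultiQC 1.27.1, featureCounts and DESeq2. Aligner, genome build, annotation and strand setting: not given in the sources used here. Groups came from the sample labels, 4 libraries each.

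From the counts, edgeR 4.0.16 (R 4.3.3) was run on all 32 libraries with 1 mean per group, TMM scaling and filterByExpr at a minimum count of 10, which kept 15254 of 54532 gene identifiers. The quasi-likelihood test was applied to each contrast with Benjamini-Hochberg adjustment over all tested genes, and an adjusted p under 0.05 was called. Within 1 siRNA, the comparisons against no cytokine share its group without cytokine, and TNF + IFN against TNF shares the TNF group with TNF against none. Alternatives were DESeq2 1.42.0, its size factors, no filter, only the groups compared, the replicate number as a block, the replicate set as a term, each replicate set alone and each library left out. In addition to these, 4 tests of set differences were added after the values were seen. The labels give the same replicate numbers in every group. All 112 correlations between same-numbered libraries of 2 groups, after removal of group means, were above 0.1 (0.297 to 0.617, median 0.415). On this ground the replicate number was used as a block among the alternatives. In 70 of the 112 the closest library of the other group had the same number. In the rest it was the other library of the same replicate set. That library also passed 0.1, so the cut-off does not separate pairing by number from the shared set. The main calls are from the fit without this block.

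The scripts were tested on simulated data. Named genes were the 10 by rule and, from each further list, up to 3 called higher and 3 called lower with the largest log2 change in TNF against none in si-control and in the averaged siRNA effect. Single genes outside this rule were named for checks of the labels and cell type. The 10 genes and all lists were chosen with earlier results of these data known. Levels per kb used the union of exons in GENCODE M21, and promoter sequences were those of RefSeq on GRCm38.p6. The genes most like Tnfaip3 are not reported here. The precision is that of 17362546 to 33500030 counts per library.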

Additional observations from a re-analysis of the deposited data

Results flagged for a closer look

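Of the 80 combinations of a gene and a group, 7 held a library far from the other 3, where chance alone gives about 4. In si-control + TNF + IFN, replicate 2 was low for Nfkb1, at 243 CPM against 274 to 277 CPM in the others, and for Nfkb2, at 152 CPM against 182 to 187 CPM. In si-dnmt + TNF + IFN, replicate 4 was low for Nfkb1, at 285 CPM against 313 to 317 CPM, replicate 1 was low for Nfkbia, at 271 CPM against 311 to 315 CPM, and replicate 2 was high for Nfkbiz, at 69.1 CPM against 52.1 to 54.7 CPM. Rela was low in si-dnmt replicate 4, at 104 CPM against 111 to 113 CPM, and Nfkbie was high in si-dnmt + IFN replicate 1, at 35.0 CPM against 30.9 to 31.5 CPM.

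Effects that differed between replicates 3 and 4 and replicates 1 and 2 are given as differences of log2 fold changes, tested by edgeR. The split into these sets came from an earlier analysis of these same data. The siRNA effect without cytokine differed for Nfkbiz by 1.33 (adjusted p = 5.28e-06), Relb by 1.13 (adjusted p = 1.61e-05), Tnfaip3 by 0.90 (adjusted p = 1.04e-05), Nfkbia by 0.84 (adjusted p = 7.34e-05), Nfkb2 by 0.71 (adjusted p = 0.000970) and Nfkbie by 0.63 (adjusted p = 0.0377). With IFN it differed for Nfkbia by 0.83 (adjusted p = 0.000120), Nfkbie by 0.80 (adjusted p = 0.00650), Relb by 0.65 (adjusted p = 0.0103), Nfkb2 by 0.50 (adjusted p = 0.0274) and Tnfaip3 by 0.49 (adjusted p = 0.0113). For Nfkbiz it differed by 0.97 with TNF (adjusted p = 0.000391) and by 0.72 with TNF + IFN (adjusted p = 0.00509).

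The siRNA-by-TNF interaction differed between the sets for Relb by -1.57 (adjusted p = 6.44e-05), Nfkb2 by -0.98 (adjusted p = 0.00552) and Tnfaip3 by -0.73 (adjusted p = 0.0185). The siRNA-by-TNF + IFN interaction differed for Relb by -1.30 (adjusted p = 0.000330), Nfkbia by -1.02 (adjusted p = 0.00125), Tnfaip3 by -0.91 (adjusted p = 0.00123) and Nfkb2 by -0.77 (adjusted p = 0.0276). These last 7 tests were chosen after the values had been seen.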

How the results depend on the processing

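The number of the 10 genes called was recomputed under 8 other settings and without each library. The siRNA-by-TNF + IFN interaction of Nfkbia was 0.10 over all replicates and turned to -0.49, past the threshold, in replicates 3 and 4, and the cause was not tested. Over all results and settings, 4454 values kept their side of the threshold, 123 passed the threshold only under the other setting, 81 no longer passed and 1 reversed.

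For the siRNA effect without cytokine, 3 genes were called (18.5% of all tested genes), against 5 with the replicate number as a block or with the replicate set as a term (32.4% and 33.1%), 1 in replicates 1 and 2 (23.9%), 7 in replicates 3 and 4 (36.5%), 1 with only the 2 groups compared (14.4%) and 2 to 4 without single libraries. With TNF, 2 genes were called (20.0% of all tested genes), against 1 with no low-count filter (6.48%), 4 in replicates 3 and 4 (36.4%) and 1 to 2 without single libraries. With IFN, 5 were called, against 8 with the block or the set term, 3 in replicates 1 and 2, 9 in replicates 3 and 4 (of all tested genes 20.3%, 34.5%, 35.3%, 25.2% and 38.5%) and 2 to 7 without single libraries. With TNF + IFN, 2 were called (17.7% of all tested genes), against 1 with no filter (5.72%) or with only the groups compared (16.8%), and 1 to 2 without single libraries. The average gave 8 (48.5% of all tested genes), and 7 to 9 without single libraries.

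For IFN against none in si-control, 0 were called (14.5% of all tested genes). The count was 2 with the block (25.4%), the set term (25.9997%) or replicates 1 and 2 (25.4%). It was 8 in replicates 3 and 4 (21.9%) and 0 to 1 without single libraries. For IFN against none in si-dnmt, 0 were called (9.01% of all tested genes). The count was 3 with the block (19.0%), the set term (19.5%), replicates 1 and 2 (19.4%) or replicates 3 and 4 (16.1%). It was 2 with only the groups compared (9.47%). TNF + IFN against TNF called 3 in si-control (21.0% of all tested genes), against 5 in replicates 1 and 2 (36.4%) and 2 to 3 without single libraries. In si-dnmt it called 4 (17.5%), against 2 with no filter (6.30%), 7 in replicates 3 and 4 (25.5%) or with only the groups compared (19.3%) and 2 to 4 without single libraries. TNF against none in si-dnmt called 7 (21.0% of all tested genes), and 7 to 8 without single libraries. TNF + IFN against none in si-dnmt called 10 (40.2% of all tested genes), and 8 to 10 without single libraries. The TNF-by-IFN interaction called 0 in si-control (1.06% of all tested genes). The count was 2 with the block (4.24%), the set term (4.58%) or replicates 1 and 2 (10.6%), 4 in replicates 3 and 4 (4.35%), 1 with only the groups compared (0.652%) and 0 to 1 without single libraries. In si-dnmt it called 0 (0.354%), against 1 in replicates 3 and 4 (2.09%). The siRNA-by-TNF interaction called 0, against 6 in replicates 3 and 4 (8.04% of all tested genes). The siRNA-by-TNF + IFN interaction called 0, against 1 in replicates 1 and 2 (4.86%) and 7 in replicates 3 and 4 (11.8%). The set difference of the siRNA effect with TNF called 1 (5.96% of all tested genes), against 2 with DESeq2 (9.89%). The replicate block changed no call of the 10 genes other than those given beside the results. Depth limited Tnip3, Ltb, Tnf and Ccl20, which had 0 to 5 counts in each si-control library without cytokine. Cxcl2 was also limited, with a lowest count of 1 over the libraries.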
